A study of Mus musculus with 2 samples.

Results

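The genes of the mitogen-activated protein kinase (MAP kinase) cascade were followed in single cells of the arthritic mouse synovium after β-glucan or PBS pre-treatment. They were taken by name, as every gene of the count table whose symbol is Map4k, Map3k, Map2k, Mapk or Mapkapk followed by a number, which gave 46 of 32524 genes. By tier these were 5 MAP4K, 18 MAP3K, 7 MAP2K, 13 MAPK and 3 MAPKAPK genes. Wild-type C57BL/6 mice of 7 to 10 weeks received 1 mg β-glucan, a fungal cell wall polysaccharide, or PBS intraperitoneally 7 days before arthritis was induced, and at day 17 the hind paws were taken and their CD45+CD11b+ cells sorted. All mice were arthritic, so the control group carried the disease too. The sequencing methods and figure legends of the study, and the design text, give K/BxN serum transfer as the arthritis of these cells. The labels describe antibodies with LPS instead, and this disagreement was not settled here. Cells of 4 mice were pooled in each group and sequenced as 1 droplet library of the 3' ends of transcripts, with no map from cell to mouse. The comparison of the groups is therefore a comparison of 2 libraries, without a replicate check and without p-values.

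MAP kinase cascades pass a signal from receptor-near kinases (MAP4K) through a chain of kinases, MAP3K to MAP2K to MAPK, each of which phosphorylates and activates the next. Their end kinases are ERK, which answers mainly to growth factors such as M-CSF, and JNK and p38, which answer mainly to stress and inflammatory cytokines. The MAPKAPK kinases act below them and, in macrophages, MK2 (*Mapkapk2*) is known for stabilising the messenger RNAs of inflammatory cytokines. These proteins are switched on by phosphorylation, which RNA levels do not measure.

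The ERK, JNK and p38 genes shown here are told apart by a short motif in the activation loop, a threonine and a tyrosine with 1 amino acid between them, and the MAP2K kinases phosphorylate both of these residues. The stretches are shown because this motif marks the class of each of these 8 genes. The atypical MAPK genes, *Mapk4* among them, are not sorted by it and are not shown. Each is 39 bases of coding sequence from the canonical transcript in GRCm39, on the strand of the gene, with the 3 codons of the motif in capitals and 15 bases on either side. The middle codon reads glutamate in ERK genes, proline in JNK genes and glycine in p38 genes.
Mapk3 (ERK1, chr7:126362630-126362638, + strand, exon 4): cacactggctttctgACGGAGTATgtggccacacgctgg
Mapk7 (ERK5, chr11:61382248-61382256, - strand, exon 4): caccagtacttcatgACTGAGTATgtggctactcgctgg
Mapk8 (JNK1, chr14:33114960-33114968, - strand, exon 6): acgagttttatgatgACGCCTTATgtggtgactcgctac
Mapk9 (JNK2, chr11:49763657-49763665, + strand, exon 6): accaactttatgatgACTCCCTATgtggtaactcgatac
Mapk11 (p38β, chr15:89030069-89030077, - strand, exon 7): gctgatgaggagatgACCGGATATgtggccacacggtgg
Mapk12 (p38γ, chr15:89018879-89018887, - strand, exon 7): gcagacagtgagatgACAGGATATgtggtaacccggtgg
Mapk13 (p38δ, chr17:28995318-28995326, + strand, exon 7): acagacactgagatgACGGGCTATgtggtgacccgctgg
Mapk14 (p38α, chr17:28947373-28947381, + strand, exon 7): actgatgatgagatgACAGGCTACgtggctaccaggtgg
The coordinates are those of the 9 capital bases.

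The libraries held 81611849 UMIs (unique molecular identifiers, each standing for 1 captured transcript) over 7196 barcodes with β-glucan and 73874602 UMIs over 5760 barcodes with PBS. Requiring 500 genes and no more than 10% mitochondrial UMIs per cell left 5696 and 4553 cells, and 7 barcodes occurred in both libraries. Clustering without the cascade genes gave 19 clusters. The 11 clusters that were macrophage-like, antigen-presenting cell (APC)-like or unnamed were joined as the myeloid compartment, without the neutrophil-like, basophil/mast-like and proliferating-like clusters, with 4597 β-glucan cells (80.7%) and 3664 PBS cells (80.5%). Each of these clusters showed at least 8 of 10 macrophage markers, but by the naming rule only cluster 6 was macrophage-like and clusters 3, 4 and 17 were APC-like. Outside the compartment the neutrophil-like and proliferating-like clusters showed 9 and 10 of these markers. Cluster 16, led by *Arg1* and *Slc7a2*, held 80 PBS cells and 0 β-glucan cells. Although the sort was for CD45+CD11b+ cells, B cell-like, T cell-like, stromal-like and endothelial-like clusters were present, and they are described separately. Within the compartment, summed APC markers stood at 7249.8 CPM with β-glucan and 10849 CPM with PBS, neutrophil markers at 38.2 and 124, and osteoclast markers at 133 and 207. Macrophage markers stood at 15052 and 14071. The part of these differences in the results below was not tested, except where a value within a cluster is given.

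In the myeloid compartment 37 of the 46 cascade genes reached a mean level of 5 CPM, where CPM (counts per 1000000) relates the UMIs of a gene to all UMIs of the cells. With β-glucan 26 of these 37 genes were higher and 11 lower. Their median log2 ratio was 0.06, beside 57.7% higher and a median of 0.03 over all 9809 genes at that level. A log2 ratio past 0.25, about a 1.19-fold difference, was found for 4 members above and 2 below, while 7.58% of all genes were past it above and 4.83% below. The counting interval, which is a 95% exact interval and covers counting error only, lay above 0 for 14 members and below 0 for 3, against 33% and 21.7% of all genes. The larger ratios belonged to a few genes. In bulk sums of this kind, fewer cells that carry a gene and less of its RNA per cell cannot be told apart.

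**Figure D1:**
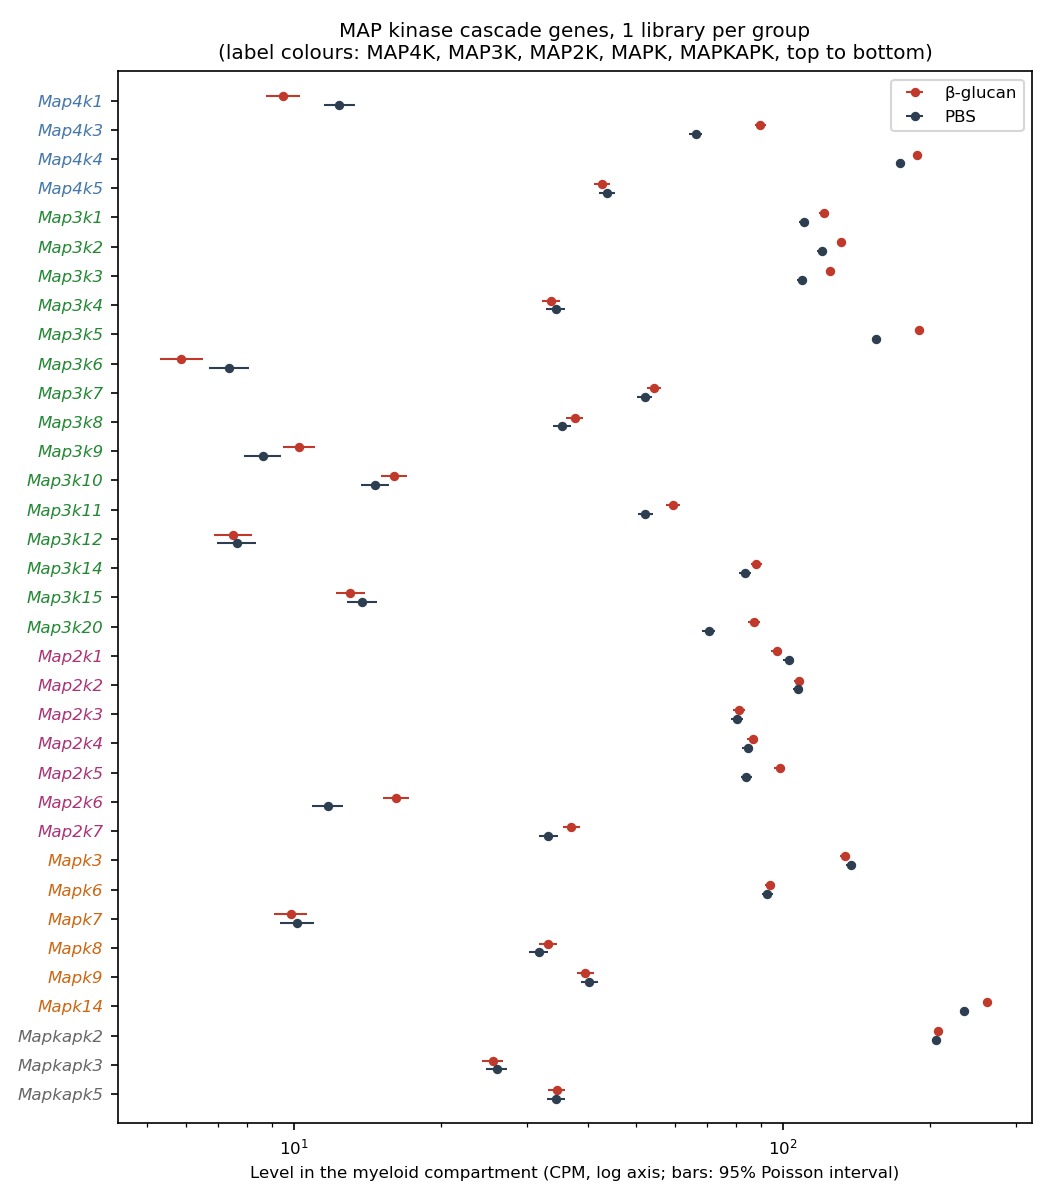
Level of 35 of the 37 measured cascade genes in the myeloid compartment (CPM, log axis) in the β-glucan library (red) and the PBS library (dark), with 95% Poisson intervals, ordered by tier. *Mapk14*, *Mapkapk2*, *Map3k5* and *Map4k4* have the most UMIs, and the β-glucan points lie clearly to the right for *Map4k3*, *Map3k5*, *Map3k20* and *Map2k6*.

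**Figure D2:**
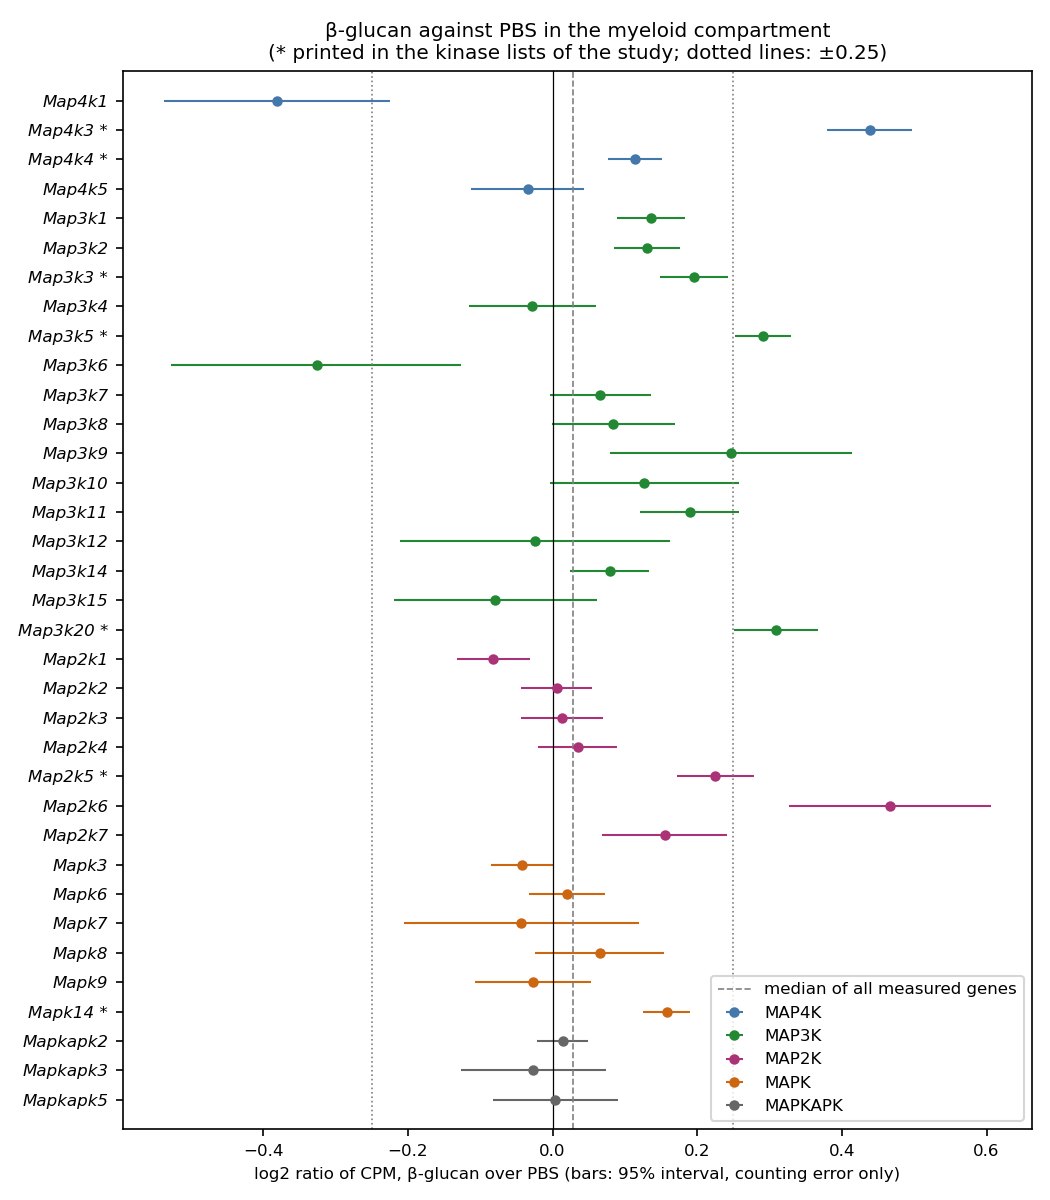
Log2 ratio of CPM, β-glucan over PBS, for the same genes, with 95% counting intervals, coloured by tier. The dashed line is the median of all measured genes, 0.03, and the dotted lines mark 0.25 in either direction; 4 genes lie past the upper line and 2 past the lower.

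At the top of the cascade, the 5 MAP4K genes together stood at 339.9 CPM with β-glucan and 306 CPM with PBS. Their members parted. *Map4k3* (GLK, a kinase that feeds JNK and nutrient signalling; chr17:80887634-81035935) had 89.9 CPM with β-glucan and 66.3 CPM with PBS, a log2 ratio of 0.44 (0.38 to 0.50). *Map4k4*, which acts upstream of JNK, had 188 and 174 CPM (log2 ratio 0.11, 0.08 to 0.15, but 0.02 in the matched cells described below). *Map4k1* (HPK1, a brake on lymphocyte receptor signalling) was scarce, at 9.51 and 12.4 CPM, and was lower with β-glucan (log2 ratio -0.38, -0.54 to -0.23). Its RNA was not spread evenly: the APC-like cluster 4, led by *Ccl17* and *Cd209a*, held 350 of its 619 UMIs with β-glucan and 558 of its 747 with PBS. That cluster had 370 β-glucan cells and 515 PBS cells, and within it *Map4k1* stood at 44.4 and 46.8 CPM (log2 ratio -0.08, -0.27 to 0.12). The interval for *Map4k5* held 0.

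The MAP3K genes, which couple many different receptors and stresses to the cascade, summed to 983 CPM with β-glucan and 877 CPM with PBS, a log2 ratio of the sums of 0.16 (0.15 to 0.18). Of 15 measured genes 11 were higher, with a median log2 ratio of 0.13, beside 57.7% and 0.03 over all genes. In the matched cells described below 8 of the 15 were higher, with a median log2 ratio of 0.00. *Map3k20* (ZAK, which senses stalled ribosomes; chr2:72115981-72272954) had 87.3 and 70.5 CPM, a log2 ratio of 0.31 (0.25 to 0.37). *Map3k5* (ASK1, activated by oxidative stress; chr10:19809326-20018665) had 189.7 and 155 CPM, a log2 ratio of 0.29 (0.25 to 0.33). Smaller differences in the same direction were seen for *Map3k1*, *Map3k2*, *Map3k3*, *Map3k9*, *Map3k11* and *Map3k14*, with log2 ratios from 0.08 to 0.25 and intervals above 0. *Map3k11* (MLK3, upstream of JNK) went with 59.6 CPM after β-glucan and 52.3 CPM after PBS. The 2 MAP3K genes best known from Toll-like receptor signalling, *Map3k7* (TAK1) and *Map3k8* (TPL2), had 54.6 against 52.2 CPM and 37.5 against 35.3 CPM, and both intervals held 0. *Map3k6* (ASK2, a partner of ASK1) was lower, at 5.88 and 7.38 CPM (log2 ratio -0.33, -0.53 to -0.13).

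The 7 MAP2K genes are the narrow point of the cascade, each serving only 1 or a few MAPK classes. *Map2k6* (MKK6, an activator of p38; chr11:110289942-110416348) had the largest log2 ratio of all measured members, 0.47 (0.33 to 0.61), from 16.2 CPM with β-glucan and 11.7 CPM with PBS. *Map2k5* (MEK5, the activator of ERK5; chr9:63071034-63285551) had 98.4 and 84.2 CPM, a log2 ratio of 0.23 (0.17 to 0.28). *Map2k7* (MKK7, an activator of JNK) had 36.9 and 33.1 CPM (log2 ratio 0.16, 0.07 to 0.24). The other JNK activator, *Map2k4*, and the other p38 activator, *Map2k3*, had log2 ratios of 0.03 and 0.01 with intervals that held 0. *Map2k1* (MEK1, which activates ERK) was lower by a small margin, at 97.0 CPM with β-glucan and 103 CPM with PBS (log2 ratio -0.08, -0.13 to -0.03).

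The end kinases differed less. The MAPK genes summed to 719 and 693 CPM, and their 7 measured members had a median log2 ratio of 0.01. *Mapk14*, which encodes p38α, was the exception among them, with 262 CPM after β-glucan and 235 CPM after PBS (log2 ratio 0.16, 0.13 to 0.19, chr17:28910268-28967381), though its counts may include reads of a same-strand neighbour that overlaps it. *Mapk3* (ERK1) had 134 and 138 CPM, *Mapk8* (JNK1) 33.1 and 31.6, and *Mapk9* (JNK2) 39.4 and 40.2. For each of these 3 genes the interval of the log2 ratio held 0 and lay between -0.11 and 0.15. The MAPKAPK genes were the closest to equal of the 5 tiers, at 267 and 266 CPM, a log2 ratio of the sums of 0.01 (-0.02 to 0.04). *Mapkapk2* itself, the p38 substrate, had 207 and 205 CPM. Under TMM scaling the median log2 ratio of the MAPK genes was -0.01, and 0 of 3 MAPKAPK genes stayed above 0.

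Read along the routes in the whole compartment, the higher members lay mainly above the end kinases. In the matched cells described below the tier medians were closer together, at 0.02 (MAP4K), 0.00 (MAP3K), 0.03 (MAP2K), -0.03 (MAPK) and -0.04 (MAPKAPK). On the ERK route *Map2k1* was lower, while *Map2k2* (log2 ratio 0.01) and *Mapk3* (-0.04) were close to 0. On the JNK route *Map2k7* was higher while *Map2k4*, *Mapk8* (0.06) and *Mapk9* (-0.03) were not separated from 0. On the p38 route *Map2k6* and *Mapk14* were higher (0.35 and 0.02 in the matched cells) while *Map2k3* and *Mapkapk2* (0.01) were not. On the ERK5 route, *Map3k2* (0.13), *Map3k3* and *Map2k5* were higher (but at -0.01, 0.05 and 0.10 in the matched cells described below), whereas *Mapk7*, which encodes ERK5, had 9.85 and 10.1 CPM, with -0.04 (-0.21 to 0.12) on the log2 scale. Of the measured members 7 were printed in the protein kinase lists of the study, namely *Map3k20*, *Map4k3*, *Map2k5*, *Map4k4*, *Map3k5*, *Map3k3* and *Mapk14*. They had a median log2 ratio of 0.23 with 7 of 7 higher, which is no independent evidence since the study chose them on these samples as upregulated. Among the other 30, 19 were higher, with a median log2 ratio of 0.01.

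Whether a ratio held inside the clusters was examined in the 9 clusters of the compartment with at least 50 cells per library. *Map4k3* was higher in 9 of 9, each with an interval above 0, from a log2 ratio of 0.18 (0.03 to 0.33) in cluster 2, led by *Vsig4*, to 0.74 (0.34 to 1.15) in cluster 9, led by *Ldlrad3*. *Map3k20*, *Map3k9* and *Map3k11* were higher in 9 of 9 too, with intervals above 0 in 5, 3 and 3 clusters. *Map3k5*, *Map2k5*, *Map2k6*, *Map2k7*, *Map3k3* and *Mapk14* were higher in 8 of 9. Cluster 9, whose cells had a median of only 5153 UMIs, was the cluster in which *Map3k5* (-0.17), *Map2k5* (-0.03), *Map2k6* (-0.46) and *Map3k3* (-0.16) went the other way, with intervals that held 0. For *Mapk14* the odd cluster was cluster 1, led by *Spp1* and *Cav1*, with 219 and 220.4 CPM. *Map3k6* was lower in 8 of 9 clusters, though no single interval lay below 0, and *Map4k5* was lower in 8 of 9.

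Members of every tier had ratios of both signs across the clusters, *Mapk3* and *Mapkapk2* among them. *Mapk3* was higher in 4 and lower in 5, the lowest being -0.20 (-0.30 to -0.09) in cluster 1. *Mapkapk2* stood at 277 CPM with β-glucan and 241 CPM with PBS in cluster 5, led by *Olr1* and *Spp1* and by the stress genes *Cxcl2*, *Atf3* and *Ier3*, but at 188 and 207 CPM in cluster 2. Its near-equal level in the whole compartment thus joined a log2 ratio of 0.20 (0.10 to 0.31) with one of -0.14 (-0.23 to -0.05). Counted over members with at least 20 CPM, between 17 of 28 and 22 of 29 were higher in the clusters other than cluster 9, beside 49.4% to 56.3% of all genes, and 14 of 30 were in cluster 9, beside 50.8%. In cluster 4, 5 of 29 members were past 0.25 above and 0 below, where 12.5% and 7.28% of all genes were. In cluster 2, 0 of 27 were past it in either direction, where 5.6% and 3.77% of all genes were.

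**Figure D3:**
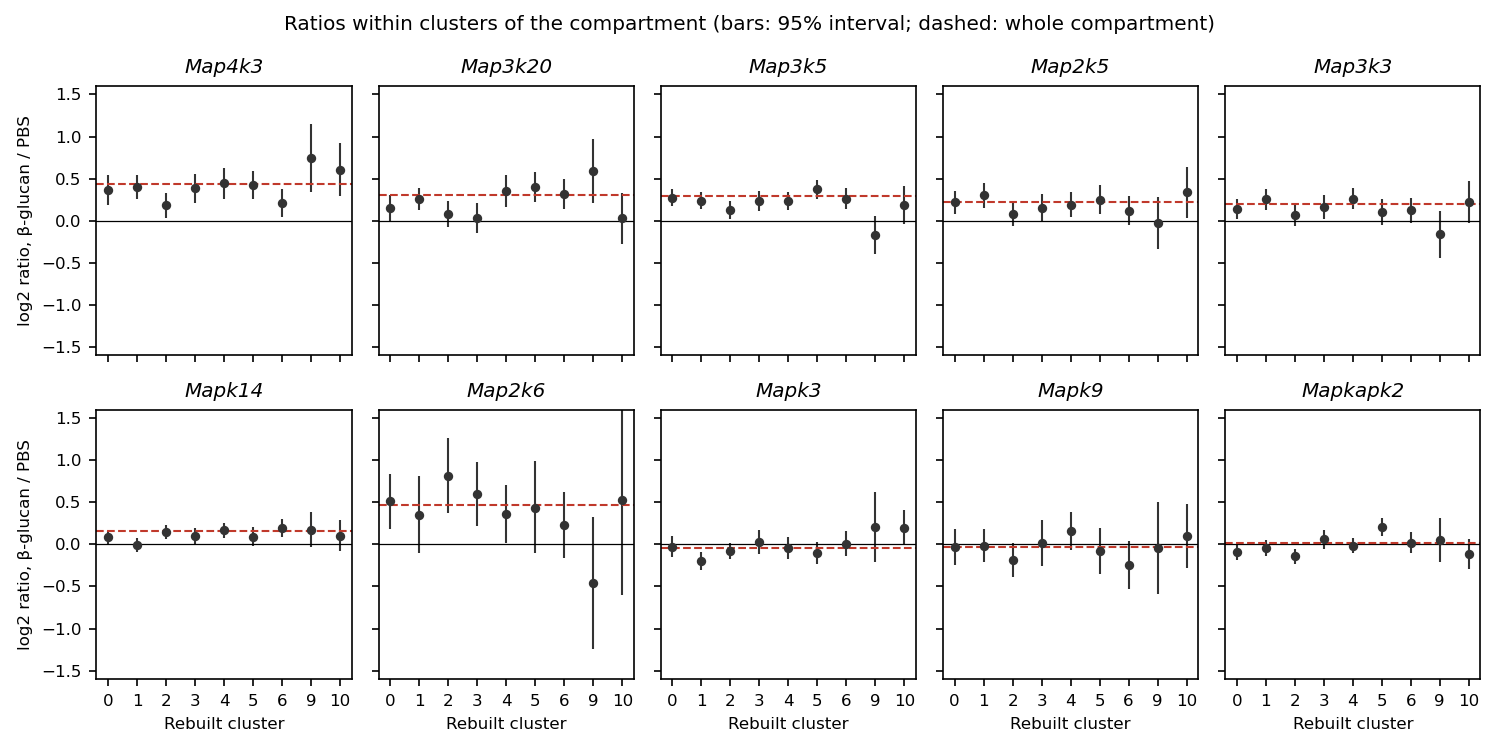
Log2 ratio of CPM, β-glucan over PBS, of 10 cascade genes in each of the 9 clusters of the compartment with at least 50 cells per library, with 95% counting intervals; the dashed line is the value for the whole compartment. *Map4k3* lies above 0 in all 9 clusters, and *Mapk3*, *Mapk9* and *Mapkapk2* scatter about 0.

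The length of a gene moved with the ratio, and many of the higher members are long. Of all UMIs in the compartment, genes of at least 100 kb took 19.5% after β-glucan and 17.7% after PBS. Over all measured genes the median log2 ratio was -0.06 for spans under 10 kb, 0.00 for 10 to 30 kb, 0.06 for 30 to 100 kb and 0.14 for at least 100 kb. The cascade genes followed the same order, with medians of -0.04 (3 genes), 0.01 (10 genes), 0.04 (16 genes) and 0.26 (8 genes). *Map4k3*, *Map3k20*, *Map3k5*, *Map2k6* and *Map2k5* were all in the longest class, with spans of 148, 157, 209, 126 and 215 kb. The same class held *Map4k4*, with a log2 ratio of 0.11, *Map2k4*, with 0.03, and *Map3k15*, with -0.08. *Mapk14* spans 57.1 kb.

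To compare cells with equal shares of long-gene UMIs, 3170 cells of each library were matched within clusters on that share, computed without the cascade genes. In the matched cells 19 of 37 members were higher, with a median log2 ratio of 0.00, the same as over all genes. The log2 ratio of *Map4k3* was then 0.22, of *Map2k6* 0.35, of *Map3k20* 0.11, of *Map2k5* 0.10, of *Map3k5* 0.08 and of *Mapk14* 0.02. Thus only *Map2k6* stayed past 0.25 above, and *Map4k3* kept a value about 0.22 above the median of all genes. *Map3k11*, with a span of 14.6 kb, *Map2k7*, with 9.16 kb, and *Map3k9*, with 60.2 kb, changed little, at 0.19, 0.12 and 0.24. *Map3k3* was at 0.05, *Map3k14* at 0.00, *Map3k2* at -0.01 and *Map3k1* at -0.04, so the last 2 turned below 0. *Map3k6* stayed lower, at -0.31, and *Map4k1* was at 0.03.

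**Figure D4:**
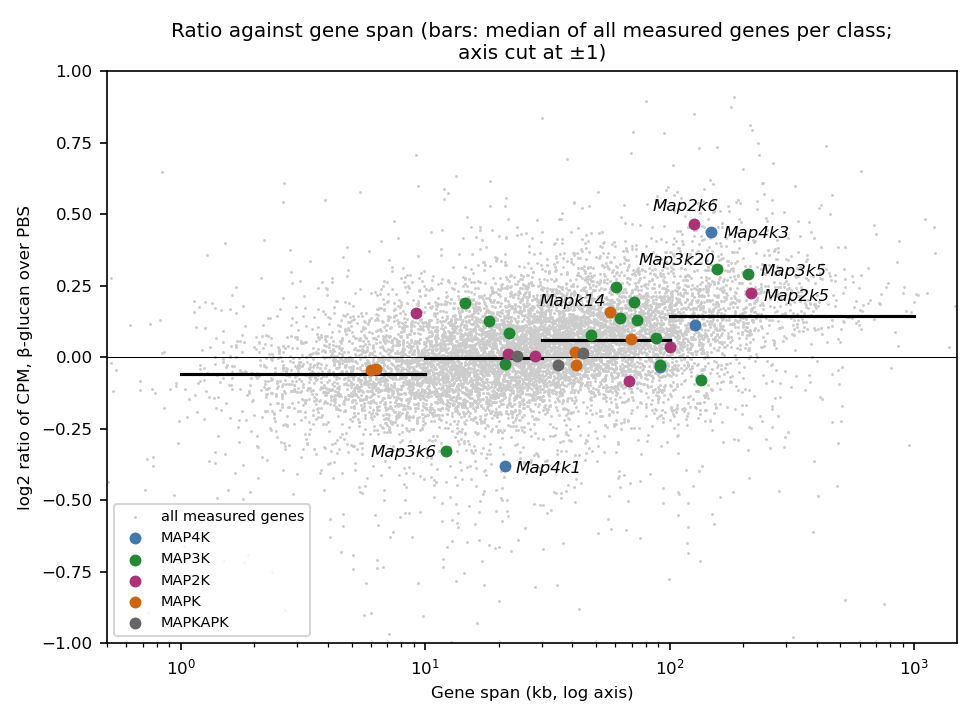
Log2 ratio of CPM, β-glucan over PBS, against gene span (kb, log axis) for all measured genes (grey) and the cascade genes (coloured by tier); the black bars are the medians of all measured genes in 4 classes of span. The bars climb from -0.06 to 0.14, and *Map2k6*, *Map4k3*, *Map3k20*, *Map3k5* and *Map2k5* stand at the upper right, above the bar of their class.

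Across the cell types of the sort, most cascade genes were found everywhere, and a few were concentrated in cells outside the compartment. Levels are given for both libraries together and each gene is compared only with itself. *Map4k1* stood at 151 CPM (140 to 163) in the B cell-like cluster, 45.5 CPM in the T cell-like cluster and 32.8 CPM in cluster 14, led by *Ccl5* and *Gzma*, against 10.9 CPM in the compartment. Within the compartment it ran from 0.39 CPM in cluster 2 to 45.8 CPM in cluster 4 and 76.7 CPM in cluster 17, led by *Clec9a* and *Xcr1*, so its myeloid RNA was mainly in APC-like cells.

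*Map2k6* stood at 53.6 CPM in B cell-like and 47.6 CPM in T cell-like cells, against 14 CPM. *Map3k19*, which was hardly seen in the compartment at 0.36 CPM, had 8.44 CPM (5.94 to 11.6) in B cell-like cells. *Mapkapk3* (MK3, a close relative of MK2) reached 178 CPM in T cell-like and 95.2 CPM in basophil/mast-like cells against 25.7 CPM. In the endothelial-like cluster, which had only 23 and 13 cells, *Map4k3* was at 546 CPM (483 to 615) against 78.6 CPM, and *Map4k5* at 133 CPM against 43.1 CPM.

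**Figure D5:**
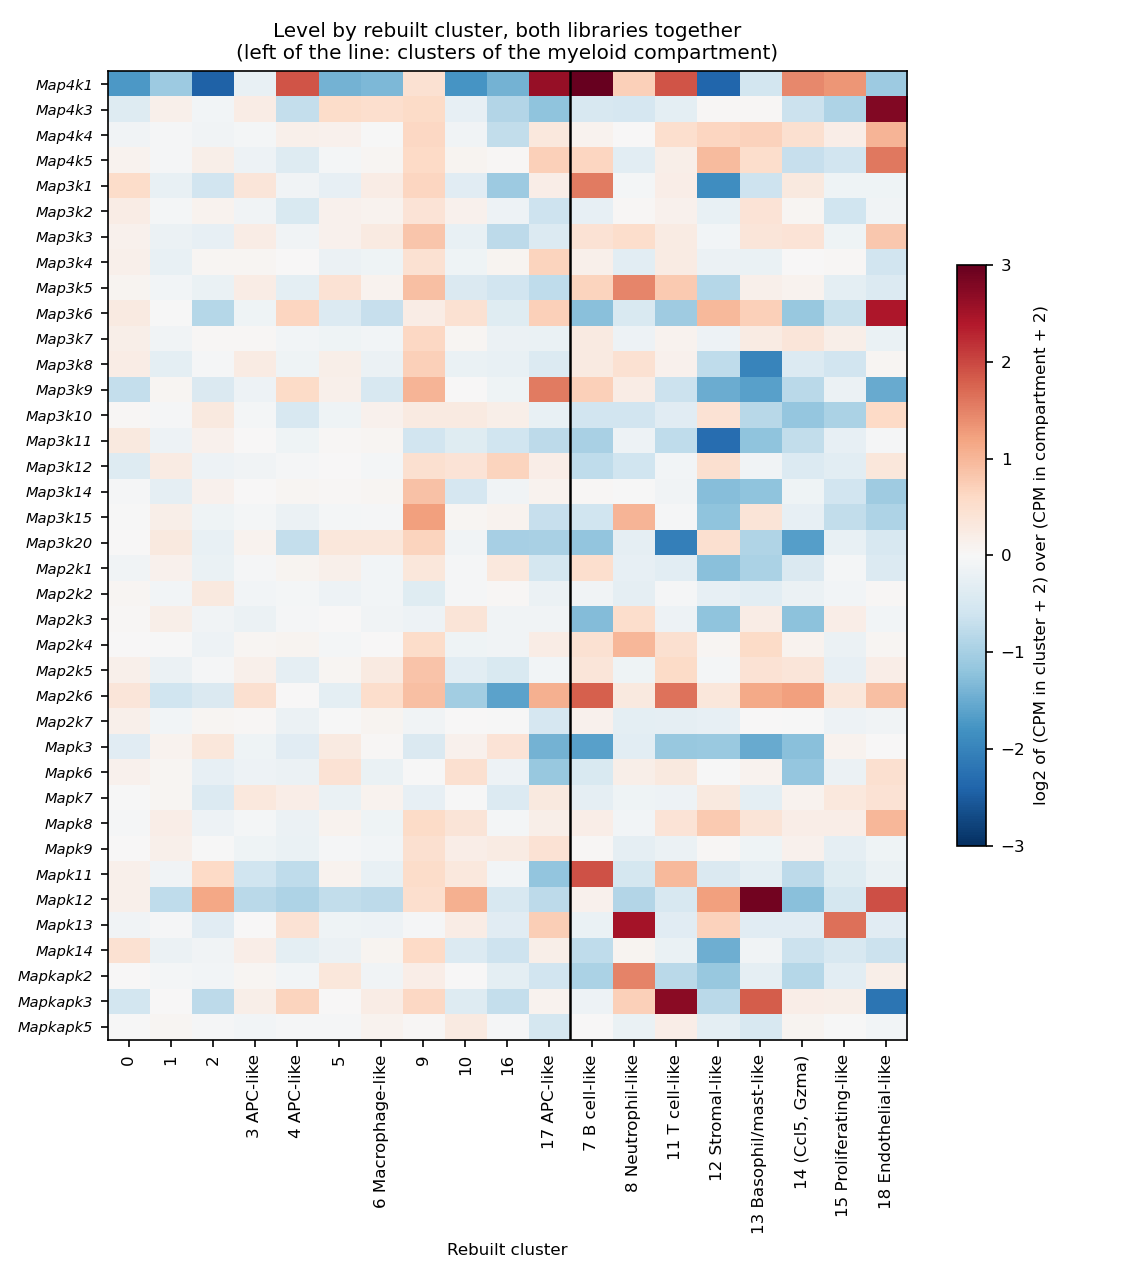
Level of cascade genes with at least 10 CPM in some cluster (rows) in the 19 rebuilt clusters (columns), both libraries together, as log2 of CPM plus 2 over the same in the whole compartment; red is higher and blue lower. The clusters left of the line form the compartment, where most genes vary little, and the strongest red fields lie to its right, at *Map4k1* in B cell-like cells, *Mapkapk3* in T cell-like cells, *Mapk12* in basophil/mast-like cells and *Map4k3* in endothelial-like cells.

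The neutrophil-like cluster stood out for *Mapk13* (p38δ), at 12.5 CPM (9.59 to 15.9) against 0.54 CPM in the compartment. *Mapkapk2* was at 586 CPM there and *Map3k5* at 479 CPM, against 206 and 173 CPM. The cluster was not uniform. At a resolution of 1 it parted into cells with 3 of 10 macrophage markers (112 with β-glucan and 128 with PBS) and cells with 10 of 10 (142 and 45). The median was 4298 UMIs per cell in the former and 18335 in the latter, and marker detection depends on depth. *Mapk13* was at 35.8 CPM in the former and 5.55 CPM in the latter. In the former *Mapkapk2* had 1061 CPM with β-glucan and 1174 CPM with PBS, and *Map3k5* had 938 and 901 CPM. In the latter they had 431 and 413 CPM, and 355 and 329 CPM. The cells with all macrophage markers made up more of the cluster in the β-glucan library. In the whole cluster *Mapkapk2* was lower with β-glucan, at 524 against 734 CPM. The part of the mix of cells in this difference was not tested. The B cell-like cluster held a similar fringe of 67 and 29 cells with 9 macrophage markers, and *Map4k1* was at 179 CPM in the rest of it and 68.0 CPM in the fringe. Outside the fringe *Map4k1* had 194 CPM with β-glucan and 163 CPM with PBS (log2 ratio 0.25, 0.01 to 0.49).

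Within the families, the share of UMIs taken by each relative also depended on the cell type. Shares are of UMIs of 3' ends and compare cell types, not the abundance of the proteins. In the compartment *Mapk14* took 97.7% of the UMIs of the 4 p38 genes, and its share was close to this in each library. It took 88.6% in B cell-like cells, where *Mapk11* (p38β) had 9.28% (7.26% to 11.6%), and 86.7% in basophil/mast-like cells, where *Mapk12* (p38γ) had 12.6% (9.13% to 16.8%). *Mapk13* took 4.51% in the neutrophil-like cluster and 0.213% in the compartment. Raised shares were not limited to these cells, since *Mapk12* took 8.90% in stromal-like and *Mapk13* 3.23% in proliferating-like cells.

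*Mapk3* stood at 136 CPM in the compartment and at 42.2 CPM in B cell-like, 46.3 CPM in basophil/mast-like and 60.6 CPM in T cell-like cells, but at 109 CPM in neutrophil-like and 147 CPM in proliferating-like cells. At a resolution of 1 it was at 81.9 CPM in the neutrophil-like cells with 3 of 10 macrophage markers and 117 CPM in those with 10 of 10. In the B cell-like cluster it was at 29.3 CPM outside the fringe and 79.0 CPM in the fringe. *Map2k6* took 14.8% of the UMIs of the p38 activators *Map2k3* and *Map2k6* in the compartment, with 16.6% (15.7% to 17.5%) in the β-glucan and 12.7% (11.8% to 13.6%) in the PBS library, and 62.7% in B cell-like cells. *Mapkapk3* took 11.1% of the UMIs of *Mapkapk2* and *Mapkapk3* in the compartment and 60.4% in T cell-like cells. The JNK genes were shared more evenly, with *Mapk9* at 55.1% and *Mapk8* at 44.8% in the compartment, and *Mapk10* had 6 UMIs there.

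Ratios of β-glucan over PBS outside the compartment rest on 52 to 324 cells per library. In B cell-like cells 25 of 31 members with at least 20 CPM were higher, beside 59.7% of all genes, with 12 past 0.25 above and 2 below, where 27.1% and 14% of all genes were. Among the 12 was *Mapk3*. At a resolution of 1 its log2 ratio was -0.06 outside the fringe with macrophage markers and -0.11 in it, with intervals that held 0. In T cell-like cells 17 of 30 were higher, beside 56.5% of all genes, with 10 past 0.25 above and 2 below (29.7% and 19.8% of all genes). In stromal-like cells 19 of 27 were higher, beside 44.9% of all genes, with 10 past it above and 3 below (17.9% and 22.1%). In the neutrophil-like cluster 8 of 31 were past it above and 6 below (35.1% and 20%), and in cluster 14 these were 12 and 5 of 31 (32% and 25.4%). In basophil/mast-like cells 11 and 6 of 29 were past it (30.8% and 26.8%), and in proliferating-like cells 10 and 5 of 29 (25% and 19.5%). *Map4k3* was higher with β-glucan also in B cell-like (62.0 and 46.7 CPM), T cell-like (91.6 and 42.1 CPM) and stromal-like cells (90.6 and 68.2 CPM), but not in cluster 14 (47.6 and 53.0 CPM). In neutrophil-like, basophil/mast-like and proliferating-like cells *Map4k3* was past 0.25 above too. Among the 6 members past 0.25 below in the neutrophil-like cluster was *Map3k5*. Its log2 ratios in the parts of that cluster at a resolution of 1 were 0.06 and 0.11, with intervals that held 0. The part of the mix of cells in the counts of the neutrophil-like and B cell-like clusters was not tested.

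The genes around the cascade were read from 8 lists. Over all measured genes 57.7% were higher, with 7.58% past 0.25 above and 4.83% below. Of 11 measured genes for Ras, Raf and their partners 8 were higher, with a median log2 ratio of 0.08. In the matched cells 6 of these 11 were higher, with a median of 0.00. *Ksr1*, a scaffold of the ERK route, was highest (23.0 and 19.5 CPM, log2 ratio 0.23) and *Hras* lowest (43.5 and 50.8 CPM, log2 ratio -0.23, -0.30 to -0.15, higher in 0 of 9 clusters). In the matched cells *Ksr1* was at 0.13 and *Hras* at -0.07. Of 15 receptor-near activators 10 were higher, and 6 were in the matched cells, with a median log2 ratio there of -0.01. They were led by *Irak4*, a kinase of Toll-like receptor signalling (51.1 and 43.4 CPM, log2 ratio 0.24), while *Pak1* was lowest (-0.15 on the log2 scale). The matched cells gave 0.17 for *Irak4* and -0.12 for *Pak1*. Of 8 scaffold genes 4 were higher and none (0) were past 0.25. *Arrb1* was highest, at 0.07, and *Lamtor2* lowest, at -0.06, but in the matched cells they stood at -0.01 and 0.02.

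The measured phosphatases that switch MAP kinases off, a list written with earlier results of these data known, differed more than the kinases. *Dusp6*, which acts on ERK, had 87.9 CPM with β-glucan and 64.6 CPM with PBS, a log2 ratio of 0.44 (0.39 to 0.50), higher in 9 of 9 clusters. *Dusp7*, another ERK phosphatase, had 53.2 and 39.9 CPM, a log2 ratio of 0.42. The study printed *Dusp6* and *Dusp7* among its upregulated genes from these samples, so their values are no independent evidence. *Dusp1*, the early-induced phosphatase of p38 and JNK, went the other way with 245 and 343 CPM, a log2 ratio of -0.49 (-0.52 to -0.46), and was higher in only 1 of 9 clusters. *Dusp5* (-0.78), *Dusp10* (-0.40) and *Dusp16* (-0.11) were lower too. In the 6 measured genes 2 were past 0.25 above and 3 below, where 7.58% and 4.83% of all genes were. Both directions were seen in the matched cells, where *Dusp6* was at 0.24, *Dusp7* at 0.34 and *Dusp1* at -0.56.

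Of the 5 measured Sprouty, Spred and Ras-GAP inhibitors 4 were higher, with *Rasa1* at 0.26 (0.09 in matched cells) and *Pebp1* at -0.09 (0.02 in matched cells). Among 6 substrate kinases of the RSK, MSK and MNK families 4 were higher, with *Rps6ka5* (MSK1, 0.19) highest and *Mknk2* (-0.11) lowest of those with at least 20 CPM. In matched cells *Rps6ka5* was at 0.05 and *Mknk2* at -0.004. Of 14 transcription factors that MAP kinases phosphorylate 10 were higher, with a median log2 ratio of 0.02, beside 0.03 over all genes. In the matched cells 8 of the 14 were higher, with a median of 0.03 beside 0.00 over all genes. With TMM scaling 8 were higher, and with equal weight per cluster 7. *Mef2c*, a target of p38 and ERK5, had 509 and 371 CPM (log2 ratio 0.46, 9 of 9 clusters, 0.26 in matched cells), and *Ets2*, a target of ERK, had 37.9 and 60.2 CPM (-0.67, higher in 0 of 9). The study reported *Mef2c* and *Rasa1* as upregulated in these samples, so their values are no independent evidence either. It also printed *Mef2a*, *Atf7*, *Spred1*, *Rps6ka3* and, among the receptor-near activators, *Taok1* as upregulated. The counts of genes higher in these lists include them, so those counts are not independent of the study. The immediate-early and heat-shock genes, which also answer to cell dissociation, did not move as 1 group, but more were lower. Of 10 genes 4 were higher, *Jun* highest (182 and 157 CPM, 0.22) and *Junb* lowest (262 and 337 CPM, -0.37). Intervals lay above 0 for 2 and below 0 for 5, beside 33% and 21.7% of all genes. Past 0.25 were 0 above and 3 below, namely *Junb*, *Ier2* (-0.34) and *Fosb* (-0.32), beside 7.58% and 4.83% of all genes. The part of the immediate-early and heat-shock genes in the values of *Dusp1* and *Jun* was not tested.

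The remaining 9 cascade genes were under 5 CPM in the compartment. *Map3k21* had 0 UMIs in both libraries, where a count of 0 allows up to 0.0239 CPM over both together. *Mapk10*, the neuronal JNK3, had 2 and 4 UMIs, *Mapk15* had 3 and 6, and *Mapk4* had 16 and 15. *Map3k13* stood at 1.81 and 1.72 CPM, *Mapk11* at 2.63 and 2.52 CPM and *Mapk12* at 2.67 and 2.83 CPM. For *Mapk13*, with 28 and 40 UMIs, and for *Map3k19*, with 24 and 21, no difference was detectable at this depth.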

How the data were processed

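Single cells of 2 libraries, 1 per group, were analysed. The authors deposited UMI counts per gene and barcode, made with Cell Ranger 7.0.0, as integers without normalization. The methods give GRCm39 with Ensembl 104, whereas the submitters' processing notes list mm10 too. Whether reads in introns were counted is not given in the sources used here, which bears on long genes. Counts were summed per library and cell group and divided by all UMIs of those cells (CPM), so a rise in some genes lowers the CPM of others, and CPM of 3' UMIs was not scaled to gene length.

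Of 12956 barcodes, 10249 passed a minimum of 500 genes and a maximum of 10% mitochondrial UMIs, with a median of 12457.5 UMIs (β-glucan) and 14475 UMIs (PBS). Clusters were made with Seurat 5.3.0 (R 4.3.3, sctransform 0.4.2) from merged libraries without integration, leaving the cascade genes out of 30 principal components of 3000 variable genes, at 20 neighbours and resolution 0.7. The authors' own cell assignment was not used, so a difference from the study may come from the rebuilt clusters. A cluster was named for the class with most markers among its 10 leading genes by fold over all other cells. At least 3 of that class's markers had to be detected in 25% of its cells, their mean log2 ratio to the other cells had to be above 0 and, where none was a leading gene, at least 2. Clusters whose markers did not stand out in this way stayed unnamed, however many were detected. Scrublet marked 0 and 2 cells, too few to have worked, so doublets were kept. Ratios were computed in Python 3.11.15 with scipy 1.17.1. Their intervals are exact conditional binomial (Clopper-Pearson) intervals at 95%, and levels carry exact Poisson intervals. Members had to reach a mean of 5 CPM in the compartment and, for counts over members in single clusters, 20 CPM there. Directions of single named members in clusters are given at any level, among them *Map3k9*, *Map3k6* and *Map2k6*. Gene positions and spans came from a later annotation than Ensembl 104, in which 31870 of 32524 genes were found by identifier. *Mapk14*, *Map3k13* and *Map3k14* overlap another gene on the same strand there, so their counts are less certain.

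The values of 2 measured members are not reported here, though counts and sums over members include them. The members and lists were chosen with earlier results of these data known. Named members were those that the study names, those past 0.25 or among the 5 highest or 5 lowest with at least 20 CPM, those at least 3 times the compartment level in another class with at least 30 UMIs, and those of the ERK, JNK and p38 routes. No member met a further rule of a 3-fold range over clusters with at least 20 CPM. Of each other list the highest and lowest gene with at least 20 CPM was named. Other genes named were chosen after their values were seen, among them *Map3k1*, *Map3k2*, *Map3k6* to *Map3k9*, *Map3k11*, *Map3k14*, *Map3k15*, *Map4k4*, *Mapk7* and the further Dusp genes. In simulated sums for β-glucan over PBS in the compartment, over 9810 genes, 95.4% of intervals held the true value and 100% of 200 changed genes had the right sign. These sums were drawn by the Poisson counting that the intervals assume, so they check the computation only. Spread between cells or mice was not simulated. Alternatives were a stricter filter (1000 genes, 5% mitochondrial UMIs), all cells of the sort, all barcodes, removal of the cells of highest Scrublet score (0.8% per 1000 cells), resolutions 0.5 and 1, 20 components, members kept in the components, other totals, TMM scaling, equal weight per cell or cluster, matched cells (10 bins of the long-gene share) and other minimums (1, 20 and 50 CPM).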

Additional observations from a re-analysis of the deposited data

Results flagged for a closer look

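*Map3k14*, which encodes NIK, the kinase that starts the alternative NF-κB pathway, had opposite ratios in different myeloid clusters. In the APC-like cluster 4 its log2 ratio of β-glucan over PBS was 0.56 (0.42 to 0.70), from 871 and 893 UMIs. In cluster 9, led by *Ldlrad3* and *Rap1gap2*, it was -0.50 (-0.82 to -0.18), from 162 and 172 UMIs. Each interval lay wholly on its own side of 0, but the difference between the clusters was not tested, since there is 1 library per group.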

How the results depend on the processing

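No paired analysis was possible because each group had 1 library, and for the same reason no replicate could be left out. Of the 37 measured members, 19 to 27 were higher over the alternatives with the same minimum of 5 CPM, and their median log2 ratio was 0.00 to 0.06. The median over all genes moved too, from 0.00 in matched cells to 0.03 in all cells of the sort. Of all genes, 9.77% were past 0.25 above in all cells of the sort, beside 7.58% in the main setting. The count past 0.25 above, 4, was 1 in cells matched for long-gene UMIs and 4 or 5 under the other alternatives with the same minimum. The count below, 2, was 0 in all cells of the sort, 0 in all barcodes without a filter, 1 with equal weight per cluster, 1 in matched cells and 0 at a minimum of 20 CPM. *Map4k1* turned to 0.030 in matched cells. The number of higher members was 21 with TMM scaling, 20 with equal weight per cluster and 19 in matched cells. The median log2 ratio over all genes was 0.01, 0.01 and 0.00 in these settings. The cause of these moves was not tested. *Map4k3* kept its direction in 14 of 14 alternatives, from 0.22 to 0.48, as did *Map2k6* (0.26 to 0.48), *Map3k20* (0.11 to 0.34), *Map3k5* (0.08 to 0.29) and *Mapk14* (0.02 to 0.16). At a minimum of 50 CPM in place of 20, only members at that level were counted outside the compartment. Those past 0.25 in either direction went from 14 to 7 in B cell-like, 14 to 8 in neutrophil-like and 13 to 6 in stromal-like cells. They went from 17 to 10 in basophil/mast-like cells, 17 to 8 in cluster 14 and 15 to 8 in proliferating-like cells. The shares of all genes at that minimum are not given here, so these counts cannot be set against them. Leaving out cluster 16, which holds no β-glucan cell, was chosen after seeing the data and gave 27 of 37 higher with a median of 0.04. In the compartment the median half-width of a member's interval was 0.07 on the log2 scale, so smaller differences were not detectable for a typical member, and variation between mice is not in any interval.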
